A study of Mus musculus with 6 samples.

Results

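The 8 genes described here encode proteins that bring the cell's main mRNA deadenylase to its targets: the Btg/Tob genes Btg1, Btg2, Btg3, Tob1 and Tob2, and the Zfp36 genes Zfp36, Zfp36l1 and Zfp36l2. They were identified by gene symbol among 16111 genes with an identifier, and all 8 were found. The group was selected on measured values, since results of the wild-type against Ahrr-deficient comparison in these same libraries were known when it was put together. The genotype difference of the 8 genes is therefore given as a description, with no test. Of the 8, 7 passed the filter on low counts and entered the fit across all genes, and Btg3 did not. Where a member is said to pass the table-wide threshold, this describes its row in that fit. The alternative analyses refit the same libraries, so passing in them is no independent support for a member.

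Macrophages from the liver of C57BL/6 RCC mouse fetuses at E13.5 (embryonic day) were compared between wild-type (3 libraries) and AhRR-/- animals (3 libraries), here called Ahrr-deficient. Ahrr encodes the repressor of the aryl hydrocarbon receptor, a transcription factor activated by ligands. All cells, controls included, had been kept for 5 weeks in RPMI medium with 10% fetal calf serum and 2% GM-CSF, a growth factor for macrophages, and RNA came from 5000000 non-adherent cells per sample. The labels number the mice 1 to 3 within each genotype and do not say how the Ahrr allele was made. Non-adherent cells after long culture are a limited model of the fetal organ.

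An mRNA's poly(A) tail protects it, and its removal by the CCR4-NOT deadenylase usually starts decay. Btg and Tob proteins bind the Cnot7 and Cnot8 nuclease subunits of that complex. Tob proteins also bind the cytoplasmic poly(A)-binding protein, and the family is known for restraining cell division. Zfp36 proteins are CCCH zinc-finger proteins that bind AU-rich elements in 3' untranslated regions (UTRs) and recruit the same deadenylase. Zfp36, also called tristetraprolin, is best known in macrophages for limiting Tnf and other cytokine mRNAs. Btg2 and Zfp36 are themselves immediate-early genes, transcribed soon after a stimulus without new protein synthesis.

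The upstream regions of Btg2 and Zfp36 are shown because these genes had the largest genotype differences of the 8. Each sequence is the 250 bases before the RefSeq transcription start (GRCm38.p6), 5′ to 3′ on the gene's strand, and capitals mark the motif found.
Btg2, chr1:134079156-134079405 (minus strand): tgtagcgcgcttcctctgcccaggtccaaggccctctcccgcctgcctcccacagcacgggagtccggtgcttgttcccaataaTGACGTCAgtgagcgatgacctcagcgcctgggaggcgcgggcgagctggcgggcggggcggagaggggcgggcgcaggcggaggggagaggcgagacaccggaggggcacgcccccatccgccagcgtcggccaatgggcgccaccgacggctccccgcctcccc
Zfp36, chr7:28379229-28379478 (minus strand): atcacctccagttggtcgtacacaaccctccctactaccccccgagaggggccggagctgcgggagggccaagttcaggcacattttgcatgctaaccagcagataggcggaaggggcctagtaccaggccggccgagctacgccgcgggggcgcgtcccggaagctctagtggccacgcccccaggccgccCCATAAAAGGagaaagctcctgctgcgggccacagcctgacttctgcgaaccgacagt

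The Btg2 capitals are the cyclic AMP response element TGACGTCA, which starts 166 bases before the transcription start. The Zfp36 capitals are a CArG box, the core of serum response elements, which starts 58 bases before the start. A promoter was found for 7 of the 8 genes, with 8 promoters in all, and 4 motifs were searched on both strands. TGACGTCA was present in 1.55% of 32851 promoters of the same length, and of the 7 genes only Btg2 had it. The CArG box was present in 1.47%, and of the 7 genes only Zfp36 had it. The AP-1 motif TGANTCA was found in Zfp36l1 and in 6.75% of promoters. The AhR core TNGCGTG was found in none of the 7 genes' windows and in 4.1% of promoters. A match describes the letters of the window and is not a measured binding site.

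The Zfp36-type binding heptamer TATTTAT was searched in the 3' UTRs of GENCODE transcripts (GRCm38), a description chosen after the data were seen. It occurred 3 times each in Zfp36 (UTR of 774 bases), Zfp36l1 (1835 bases) and Zfp36l2 (1822 bases). It occurred once in Btg2 (2199 bases) and Tob2 (2457 bases), and not in Btg1, Btg3 or Tob1. The match nearest the stop codon of each gene that has one is shown within 30 bases, with the heptamer in capitals, because all 3 Zfp36 genes and only part of the Btg/Tob genes hold it.
Zfp36, chr7:28376965-28376994 (minus strand): agtgggcccttTATTTATgacgactttatt
Zfp36l1, chr12:80108421-80108450 (minus strand): ttatcaaaacgTATTTATtgccaaactatg
Zfp36l2, chr17:84184913-84184942 (minus strand): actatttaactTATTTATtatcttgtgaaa
Btg2, chr1:134077248-134077277 (minus strand): aaatgaagagcTATTTATacatgttttttt
Tob2, chr15:81849859-81849888 (minus strand): tatcacctgctTATTTATgtacgaggttgg

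The libraries held between 3556106 and 41668336 counts, an 11.72-fold range, and the shallowest and the deepest were both Ahrr-deficient (replicates 1 and 2). Levels are counts divided by the library total and scaled to 1000000 counts (CPM), and 3 counts, the floor of detection, came to between 0.072 and 0.844 CPM. Values per library are given in the order of replicates 1, 2 and 3. Ahrr was read at 4.60, 4.29 and 5.32 CPM in the wild-type libraries, against 2.25, 2.57 and 1.21 CPM in the Ahrr-deficient ones. Its log2 fold change was -1.21 (SE 0.26, n = 3 per genotype, edgeR adjusted p = 0.0151), so the targeted gene was lower but still read in every Ahrr-deficient library. That call was lost without wild-type replicate 1 and without wild-type replicate 3, with log2 fold changes between -1.69 and -1.0 over the fits that left out 1 library. All 10 macrophage markers were in the table, with summed levels of 21186 to 26714 CPM in wild-type and 15395 to 22597 CPM in Ahrr-deficient libraries. Most of each sum was 1 marker, Lyz2, at 17419 to 22740 CPM in wild-type and 12440 to 19165 CPM in Ahrr-deficient libraries. Lyz2 was not called (log2 fold change -0.46). Among the macrophage markers called, Itgax was higher (log2 fold change 1.70) and Csf1r lower (-0.65). Marker lists for neutrophils, erythroid cells and hepatocytes each summed to at most 2.22 CPM in any library, and no marker of mast cells, basophils or lymphocytes was in the table. The eosinophil list was represented by Siglecf alone, at 27.5 to 58.8 and 54.1 to 63.3 CPM, and Siglecf was not called (log2 fold change 0.39). The other markers of that list, Prg2, Epx, Ccr3 and Il5ra, were not in the table. The fibroblast and endothelial list summed to 2.52 to 10.0 and 1.62 to 4.50 CPM, and the dendritic cell list to 5.15 to 6.30 and 4.25 to 5.09 CPM. The part of these marker differences in the values below was not tested. In bulk RNA, fewer cells of a type and less RNA per cell cannot be told apart.

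Btg2 and Zfp36 were the members with the largest genotype differences. Btg2 had a mean of 459 ± 58.1 CPM in wild-type and 134 ± 35.3 CPM in Ahrr-deficient cells (SD, n = 3), which is 29.2% of the wild-type level. Zfp36 had 456 ± 58.4 and 152 ± 46.6 CPM (SD, n = 3), or 33.3%. Btg1 and Tob1 were lower by much smaller amounts, and Tob2, Zfp36l1 and Zfp36l2 overlapped between the genotypes. Btg3 was barely read in either group.

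Across the whole table, edgeR called 2232 of 11408 tested genes at an adjusted p under 0.05, or 19.6%, and 9.95% were called lower in Ahrr-deficient cells. Among them were 4 of the 7 fitted members, Btg1, Btg2, Tob1 and Zfp36, all lower. The same 4 had every Ahrr-deficient library below every wild-type library, which held for 12.8% of tested genes. Since the members were chosen with this contrast known, nothing is read from these counts. The count over all genes depended on the libraries: it was 694, 965 and 1107 without wild-type replicates 1, 2 and 3, and 3857, 948 and 1175 without Ahrr-deficient replicates 1, 2 and 3. Of the members, 2 passed without wild-type replicate 1 or 2 or Ahrr-deficient replicate 2 or 3, 3 without wild-type replicate 3, and 4 without Ahrr-deficient replicate 1. The estimated log2 fold changes of the 7 were all below 0, with a median of -0.42 against 0.008 over all tested genes. Ordered by adjusted p, Btg1 (-0.49, SE 0.14) was nearest to the threshold among the members past it, and Tob2 (-0.24, SE 0.10) among those not past it.

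**Figure D1:**
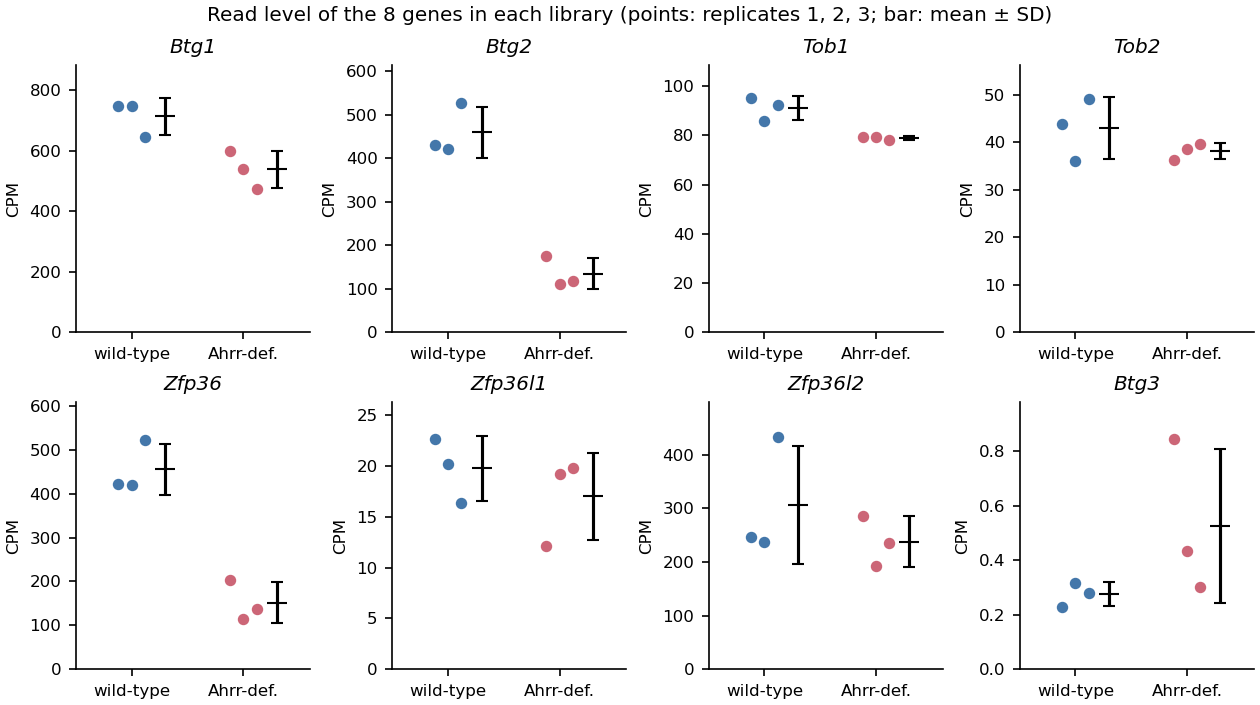
Level of the 8 genes in CPM (vertical axis) in wild-type and Ahrr-deficient libraries, with points for replicates 1, 2 and 3 from left to right and a bar for the mean ± SD. Btg2 and Zfp36 lie at 420 to 526 CPM in wild-type and 110 to 204 CPM in Ahrr-deficient libraries, and each panel has its own scale starting at 0.

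Among the Btg genes, Btg2 (ENSMUSG00000020423.6, chr1:134075170-134079120, minus strand, GRCm38) is an antiproliferative gene known as a target of p53 and as an immediate-early gene. Its level was 431, 420 and 526 CPM in the wild-type libraries, against 175, 110 and 118 CPM in the Ahrr-deficient ones. The highest Ahrr-deficient library, replicate 1, was still far below the lowest wild-type library, replicate 2. The log2 fold change was -1.86 (SE 0.18), a 3.42-fold difference of mean CPM. By size it stood at place 59 among the 1135 genes called lower. It stayed between -2.10 and -1.73 in all 14 alternative analyses and past the table-wide threshold in each.

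Btg1 (ENSMUSG00000036478.8, chr10:96617006-96622809, plus strand), an antiproliferative gene abundant in resting blood cells, was read at 747, 748 and 644 CPM in the wild-type libraries, against 598, 541 and 475 CPM in the Ahrr-deficient ones. The groups did not overlap, and the nearest values were wild-type replicate 3 and Ahrr-deficient replicate 1. The means were 713 ± 59.8 and 538 ± 61.6 CPM (SD, n = 3), with a log2 fold change of -0.49 (SE 0.14). Ahrr-deficient cells kept 75.4% of the wild-type level. The gene did not pass the threshold without wild-type replicate 1, wild-type replicate 2, Ahrr-deficient replicate 2 or Ahrr-deficient replicate 3, nor after thinning all libraries to the smallest total. Its log2 fold change lay between -0.59 and -0.40 in these and the other alternatives.

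Btg3 (ENSMUSG00000022863.14, chr16:78332637-78377192, minus strand), a further antiproliferative member, had 5, 2 and 2 counts in wild-type and 3, 18 and 3 counts in Ahrr-deficient replicates. These are 0.228, 0.317 and 0.280 CPM against 0.844, 0.432 and 0.303 CPM, and 5 counts or fewer everywhere except the deepest library. A difference was not detectable at this depth, and no fold is given. An exon of Cxadr overlaps the gene on the opposite strand, and the strand setting of the counting is not given in the sources used here.

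Tob1 (ENSMUSG00000037573.5, chr11:94211454-94215495, plus strand), which joins the deadenylase to poly(A)-binding protein, had 95.4, 85.9 and 92.2 CPM in the wild-type libraries, against 79.3, 79.5 and 78.0 CPM in the Ahrr-deficient ones. The groups did not overlap, and the Ahrr-deficient libraries lay close to each other. The means were 91.1 ± 4.83 and 78.9 ± 0.845 CPM (SD, n = 3), with a log2 fold change of -0.28 (SE 0.07). This difference passed the threshold in 7 of 14 alternatives. Of the 6 fits without 1 library, only the one without Ahrr-deficient replicate 1 kept it, and thinning was among the other alternatives that lost it. The log2 fold change lay between -0.32 and -0.27 throughout.

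Tob2 (ENSMUSG00000048546.7, chr15:81848272-81858796, minus strand), the closest relative of Tob1, had 43.8, 36.0 and 49.0 CPM in the wild-type libraries, against 36.3, 38.5 and 39.7 CPM in the Ahrr-deficient ones. Wild-type replicate 2 lay below all 3 Ahrr-deficient libraries, so the groups overlapped. The means were 43.0 ± 6.55 and 38.2 ± 1.76 CPM (SD, n = 3), with a log2 fold change of -0.24 (SE 0.10) that did not pass the threshold. An exon of Gm49476, not analysed here, overlaps it on the opposite strand.

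In the Zfp36 family, Zfp36 (ENSMUSG00000044786.6, chr7:28376784-28380253, minus strand) had 422, 421 and 523 CPM in the wild-type libraries, against 204, 114 and 137 CPM in the Ahrr-deficient ones. As for Btg2, wild-type replicate 3 was the highest library and Ahrr-deficient replicate 1 the highest of its genotype, and the groups did not overlap. The log2 fold change was -1.67 (SE 0.20), a 3.0-fold difference of mean CPM, at place 82 among the 1135 genes called lower. It stayed past the threshold in all 14 alternatives, between -1.95 and -1.49. Gm44710, which overlaps on the opposite strand, was listed at 0.140 to 1.11 CPM.

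Zfp36l1 (ENSMUSG00000021127.7, chr12:80107754-80113013, minus strand), which binds the same AU-rich elements, was read at 22.7, 20.2 and 16.4 CPM in the wild-type libraries, against 12.1, 19.2 and 19.8 CPM in the Ahrr-deficient ones. The order ran against that of Zfp36: wild-type replicate 3 was the lowest wild-type library and Ahrr-deficient replicate 1 the lowest of all. The means were 19.7 ± 3.15 and 17.1 ± 4.31 CPM (SD, n = 3), with a log2 fold change of -0.24 (SE 0.18) that did not pass the threshold. Gm26669 overlaps on the opposite strand, at 0.140 to 0.794 CPM.

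Zfp36l2 (ENSMUSG00000045817.8, chr17:84183931-84187947, minus strand), the third AU-rich element binder, had 246, 238 and 433 CPM in the wild-type libraries, against 286, 192 and 236 CPM in the Ahrr-deficient ones. Wild-type replicate 3 stood apart, and the other 5 libraries were interleaved between the genotypes. The means were 305 ± 110 and 238 ± 47.1 CPM (SD, n = 3), with a log2 fold change of -0.42 (SE 0.22) that did not pass the threshold. Without wild-type replicate 3 it was -0.14. An exon of AC132455.1, not analysed here, overlaps on the opposite strand.

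**Figure D2:**
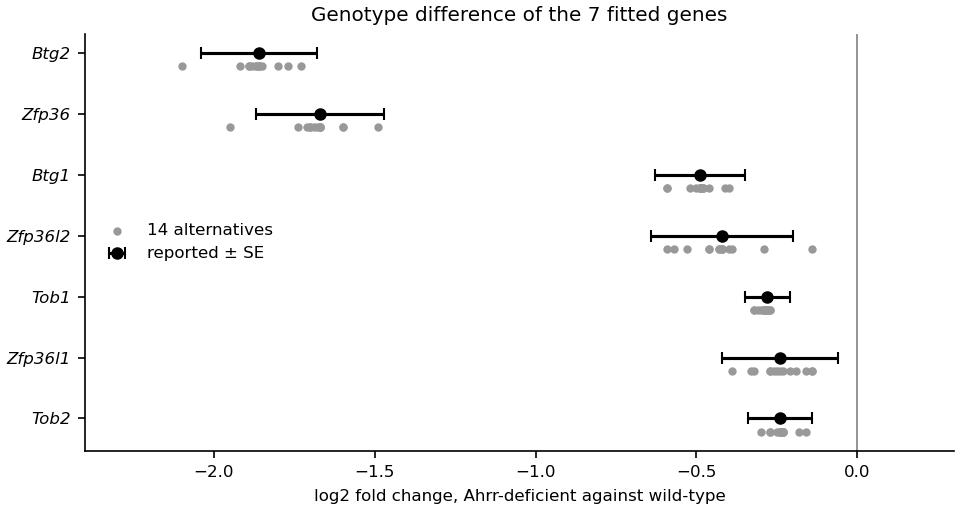
Log2 fold change of Ahrr-deficient against wild-type (horizontal axis) for the 7 fitted genes, with the reported value and its standard error in black and the 14 alternative analyses as grey points. Btg2 (-1.86) and Zfp36 (-1.67) lie apart from the other 5, which are between -0.49 and -0.24.

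Levels of different genes were compared per kilobase of annotated exon (CPM per kb), which for Zfp36 is a union of transcripts that spans the whole gene, 3470 bases, and so lowers its level per kb. The place of Zfp36 in these orders depends on that length. In wild-type the order from the top was Btg2 (167 ± 21.2 CPM per kb, SD, n = 3), Btg1 (135 ± 11.3), Zfp36 (131 ± 16.8), Zfp36l2 (86.5 ± 31.3), Tob1 (39.8 ± 2.11), Zfp36l1 (6.60 ± 1.05), Tob2 (6.45 ± 0.983) and Btg3 (0.0686 ± 0.0112). Neighbours whose libraries overlapped on this scale were Btg1 with Zfp36, Zfp36 with Zfp36l2, and Zfp36l1 with Tob2. In Ahrr-deficient cells the order was Btg1 (102 ± 11.7), Zfp36l2 (67.5 ± 13.3), Btg2 (48.9 ± 12.9), Zfp36 (43.7 ± 13.4), Tob1 (34.5 ± 0.369), Tob2 (5.73 ± 0.264), Zfp36l1 (5.70 ± 1.44) and Btg3 (0.131 ± 0.0703). Here Zfp36l2, Btg2, Zfp36 and Tob1 overlapped each with the next, as did Tob2 with Zfp36l1. Among the Btg/Tob genes, Btg2 was highest per kb in wild-type and Btg1 in Ahrr-deficient libraries.

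The make-up of both families differed between the genotypes. It is computed from the levels above, so it follows from them and is no separate result. Btg2 made up 45.3%, 45.3% and 53% of the summed Btg/Tob level per kb in wild-type and 29.3%, 21.9% and 24.8% in Ahrr-deficient replicates. Btg1 made up 40.8%, 42% and 33.8% against 52.2%, 55.9% and 52.0%, although its own level was lower in Ahrr-deficient cells. The genotypes did not overlap in either share, and the share of Tob1 was 11.4 ± 0.508% against 18.2 ± 1.99% (SD, n = 3). The summed Btg/Tob level was 347, 338 and 362 CPM per kb in wild-type and 217, 183 and 173 CPM per kb in Ahrr-deficient replicates.

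Within the Zfp36 family, Zfp36 held 61.2%, 62.1% and 54.1% of the summed level per kb in wild-type and 40.8%, 35.1% and 35% in Ahrr-deficient replicates. Zfp36l2 held 35%, 34.5% and 44% against 56.4%, 58.0% and 59.2%, and the genotypes did not overlap in either share. How far Zfp36 lay below Zfp36l2 in Ahrr-deficient cells depended on the length taken for Zfp36. Its mean share there was the lower one with every length tried. The mean share of Zfp36l2 there was 57.9%, and 53.1% and 50.1% with the next lengths. A second length was that of 1 spliced GENCODE transcript per gene, the one with the longest 3' UTR, which has 2790 bases for Zfp36. With it, the mean share of Zfp36 was 64.2 ± 4.20% in wild-type and 42.2 ± 3.49% in Ahrr-deficient libraries (SD, n = 3). With its RefSeq gene span of 2445 bases the mean shares were 67.2 ± 4.04% and 45.4 ± 3.54%, and in Ahrr-deficient replicate 1 Zfp36 then lay above Zfp36l2, at 83.4 against 81.1 CPM per kb. Both lengths were chosen after seeing the data, and the order of the pair in Ahrr-deficient cells is not settled here. A gene span also counts introns, and a shorter length would raise Zfp36 further in every library. Zfp36l1 held 3.07 ± 0.976% and 5.18 ± 2.11% (SD, n = 3). The family summed to 199, 195 and 279 CPM per kb in wild-type and to 144, 93.8 and 113 CPM per kb in Ahrr-deficient replicates. Shares within a family are bound to each other, so a lower share of one member raises the others.

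**Figure D3:**
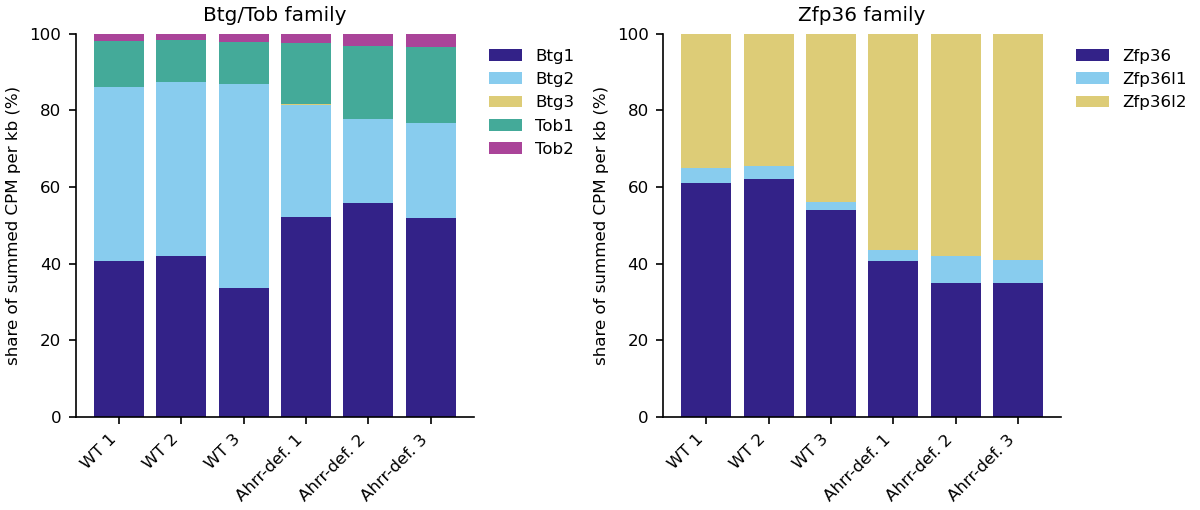
Share of each member in the summed level per kilobase of its family (vertical axis, percent) in each library, for the Btg/Tob genes (left) and the Zfp36 genes (right). Btg2 averages 47.9% in wild-type and 25.3% in Ahrr-deficient libraries, and Zfp36 59.1% and 37.0%.

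Btg2 and Zfp36 kept close to one ratio while their levels differed about 3-fold between the genotypes. The ratio of Btg2 to Zfp36 per kb was 1.26 to 1.29 in wild-type and 1.08 to 1.22 in Ahrr-deficient libraries. These ranges did not overlap, though the gap between them was small. By contrast, the ratio of Btg2 to Btg1 per kb was 1.08 to 1.57 in wild-type and 0.391 to 0.562 in Ahrr-deficient libraries. The ratio of Zfp36 to Zfp36l2 per kb was 1.23 to 1.8 against 0.591 to 0.724, and another length would scale all 6 ratios alike. The ratio of Tob1 to Tob2 per kb overlapped between the genotypes, at 5.48 to 6.94 and 5.71 to 6.37.

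Likeness between genes was measured by Pearson's r of log2 CPM over the 6 libraries, among 10034 genes that averaged 50 counts or more. The points share libraries and depth and are few, so these values describe the libraries and carry no test. Btg2 and Zfp36 had r = 0.997, and r = 0.986 with each genotype's mean removed. With the means removed, Zfp36l1 ran against both, at -0.919 with Btg2 and -0.865 with Zfp36. Btg1 and Tob1 ran together at 0.916, and both ran against Tob2, at -0.925 and -0.846.

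The pairs of genes most like each fitted member over the 6 libraries were Thra (0.998) and Slc12a9 (0.998) for Btg2, and Angptl4 (0.998) and Neurl3 (0.998) for Zfp36. They were Mrgpre (0.993) and Nfkbil1 (0.993) for Btg1, Grina (0.999) and Cbr1 (0.997) for Tob1, and Sh3glb2 (0.991) and 5730409E04Rik (0.990) for Tob2. For Zfp36l1 they were Pold2 (0.991) and Gpx4 (0.991), and for Zfp36l2 Bcl7b (0.985) and Tab2 (0.983). With the genotype means removed, other genes led: Ankhd1 and Synj1 (both 0.999) for Btg2, and Sgk3 and Cbfa2t2 (both 0.999) for Zfp36. They were Cd2bp2 (0.999) and Gm45871 (0.997) for Btg1, 2410004B18Rik and Rapgef2 (both 0.995) for Tob1, and Smpd2 (0.998) and Tspan18 (0.995) for Tob2. For Zfp36l1 they were Igsf8 (0.999) and Gpx4 (0.997), and A730017L22Rik (0.990) was among those for Zfp36l2. Of these, only Gpx4 led under both measures for the same member.

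The gene lists from here on were chosen with earlier results of these data known, so their shares are descriptions. A list count from a fit without 1 library belongs beside the count over all genes in that fit. That count was 3857 of 11837 tested genes without Ahrr-deficient replicate 1, and 694 of 11427 without wild-type replicate 1. The first list is the deadenylase to which both families bind. Of 11 tested CCR4-NOT genes, 1 was called higher and 10 were not called, with a median log2 fold change of 0.02, against 0.008 over all genes. That is 9.09% called, against 19.6% of all tested genes, and nothing is read from a difference in so short a list. The called gene, the subunit gene Cnot9, rose from 31.2 ± 5.53 to 43.8 ± 3.42 CPM (SD, n = 3), with an edgeR adjusted p of 0.0343 and a log2 fold change of 0.41 (SE 0.11). It passed the threshold in 1 of the 6 fits without 1 library, that without Ahrr-deficient replicate 1, with values between 0.33 and 0.47. An exon of Usp37 overlaps it on the opposite strand. The subunits that Btg and Tob proteins contact, Cnot7 and Cnot8, named for that role, had log2 fold changes of 0.17 and -0.05 and were not called. Without Ahrr-deficient replicate 1, 3 genes of the list were called.

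The PAN2-PAN3 deadenylase, PARN and the poly(A)-binding proteins had 9 tested genes, of which 1 was called higher, 1 lower and 7 not, with a median log2 fold change of -0.08. That is 22.2% called, near the 19.6% of all tested genes. Both called genes encode inhibitors of poly(A)-binding protein. Paip2 fell from 76.6 ± 1.89 to 65.0 ± 6.25 CPM (SD, n = 3; log2 fold change -0.32, SE 0.10, edgeR adjusted p = 0.0447). Paip2b rose from 25.7 ± 1.65 to 36.6 ± 5.67 CPM (SD, n = 3; log2 fold change 0.41, SE 0.12, edgeR adjusted p = 0.0448). Paip2 was called in 1 of the 6 fits without 1 library and Paip2b in 2, and both were lost without any of the wild-type libraries or Ahrr-deficient replicate 2. Their log2 fold changes in those fits lay between -0.40 and -0.26 and between 0.31 and 0.51. Thinning lost both calls as well. Paip2 was also lost with DESeq2 and with no filter on low counts, and Paip2b with upper-quartile scaling. Without Ahrr-deficient replicate 1, 4 genes of the list were called.

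Of the 18 decapping and 5'-to-3' decay genes, edgeR called 0, against 19.6% called over all tested genes. Their median log2 fold change was 0.05. At an unadjusted edgeR p under 0.05 there were 3, against 4087 of all 11408 tested genes. DESeq2 called 0 of the list and limma-voom 1. Without Ahrr-deficient replicate 1, edgeR called 4. The 15 tested genes of the RNA exosome and 3'-to-5' decay had a median log2 fold change of 0.19, with 2 called higher and 13 not called. That is 13.3% called, below the 19.6% of all tested genes. Ttc37, of the Ski complex that feeds the exosome, rose from 31.3 ± 3.81 to 48.8 ± 5.10 CPM (SD, n = 3; log2 fold change 0.57, SE 0.11, edgeR adjusted p = 0.0086), and was called in all 6 fits without 1 library. Dis3, an exosome nuclease gene, rose from 12.6 ± 1.69 to 17.6 ± 2.50 CPM (SD, n = 3; log2 fold change 0.46, SE 0.13, edgeR adjusted p = 0.038). Dis3 kept its call only without Ahrr-deficient replicate 1 among those fits, with values between 0.33 and 0.51, and Pibf1 overlaps it on the opposite strand. The Dis3 call was also lost with DESeq2, with no filter on low counts, and after thinning. The list had 4 called genes without Ahrr-deficient replicate 1 and 1 without each other library.

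Among 18 tested genes of other RNA-binding regulators of mRNA stability, 2 were called higher, 2 lower and 14 not, with a median log2 fold change of 0.16. These were 22.2% of the list, near the 19.6% of all tested genes. Zc3h12a encodes Regnase-1, a ribonuclease that degrades inflammatory mRNAs. It was read at 63.0, 58.7 and 59.1 CPM in the wild-type libraries, against 38.2, 36.9 and 36.8 CPM in the Ahrr-deficient ones, so the genotypes were far apart and the replicates close. Its log2 fold change was -0.77 (SE 0.09, n = 3 per genotype, edgeR adjusted p = 0.00173), and it was called in all 6 fits without 1 library. Celf1, whose protein binds GU-rich elements, rose from 127 ± 11.5 to 168 ± 2.20 CPM (SD, n = 3; log2 fold change 0.33, SE 0.07, edgeR adjusted p = 0.0166), a call lost without wild-type replicate 1 or 2 (0.30 to 0.36 over the 6 fits). Pum2, a Pumilio repressor gene, rose from 176 ± 8.96 to 227 ± 17.5 CPM (SD, n = 3; log2 fold change 0.29, SE 0.09, edgeR adjusted p = 0.0482), called only without Ahrr-deficient replicate 1 among those fits (0.21 to 0.34). The Pum2 call was also lost with RLE or upper-quartile scaling, with a minimum of 50 counts on average, and after thinning. The other lower gene, Samd4, with fewer than 50 counts on average, had a log2 fold change of -1.75. In all, 1 gene of the list was called without wild-type replicate 1, 2 without wild-type replicate 2 or Ahrr-deficient replicate 2, and 8 without Ahrr-deficient replicate 1.

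mRNAs known as Zfp36 targets, mostly of cytokines and growth regulators with AU-rich 3' UTRs, moved both ways. Of 17 tested, 4 were called higher, 5 lower and 8 not, a share of 52.9% called against 19.6% of all tested genes, with a median log2 fold change of -0.04. This list was chosen with earlier results of these data known, so nothing is read from that share. Myc, the growth-promoting transcription factor gene, was read at 26.8, 17.1 and 19.1 CPM in the wild-type libraries, against 72.6, 111 and 165 CPM in the Ahrr-deficient ones. The highest wild-type library lay well below the lowest Ahrr-deficient one, with a log2 fold change of 2.37 (SE 0.27, n = 3 per genotype, edgeR adjusted p = 0.00184). Tnf, the best known target, was low throughout, at 1.73, 1.27 and 0.981 CPM in the wild-type libraries, against 2.25, 5.18 and 3.34 CPM in the Ahrr-deficient ones. The groups did not overlap, and the log2 fold change was 1.43 (SE 0.33, n = 3 per genotype, edgeR adjusted p = 0.0181). The Tnf call was lost without any of the wild-type libraries or Ahrr-deficient replicate 2, with values between 0.98 and 1.74. Ccl2, a monocyte chemokine gene, rose from 1.70 ± 1.00 to 6.62 ± 3.68 CPM (SD, n = 3; log2 fold change 1.93, SE 0.45, edgeR adjusted p = 0.0197) and kept its call only without Ahrr-deficient replicate 1 among the 6 fits (1.55 to 2.43). Ccl2 was low too, with 54, 13 and 4 counts in wild-type and 9, 402 and 76 counts in Ahrr-deficient replicates. Its nearest values were 2.46 CPM in wild-type and 2.53 CPM in Ahrr-deficient replicate 1.

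In the other direction, the cytokine gene Lif fell from 7.07 ± 2.08 to 1.35 ± 0.586 CPM (SD, n = 3; log2 fold change -2.19, SE 0.34, edgeR adjusted p = 0.00468). Lif was low in Ahrr-deficient replicates 1, 2 and 3, with 4, 84 and 9 counts, against 143, 59 and 38 counts in the wild-type ones. Dusp1, a phosphatase of p38 MAP kinase and an immediate-early gene, was read at 325, 314 and 359 CPM in the wild-type libraries, against 128, 125 and 118 CPM in the Ahrr-deficient ones. These groups were far apart, with a log2 fold change of -1.5 (SE 0.08, n = 3 per genotype, edgeR adjusted p = 1.44e-04), and Ergic1 has an exon on the opposite strand. Il1b, the interleukin-1β gene, was read at 242, 288 and 197 CPM in the wild-type libraries, against 132, 70.6 and 76.5 CPM in the Ahrr-deficient ones. It had a log2 fold change of -1.5 (SE 0.26, n = 3 per genotype, edgeR adjusted p = 0.00658), and the groups did not overlap. Il1bos overlaps it on the opposite strand. Myc, Lif, Dusp1 and Il1b were each called in all 6 fits without 1 library. The remaining called targets, given to complete the count, were Vegfa (log2 fold change -1.46), Ier3 (-0.90) and Pim1 (0.42). The calls in the higher direction were the less stable ones. In the fits without wild-type replicate 1, wild-type replicate 2 or Ahrr-deficient replicate 2, and after thinning, 1 gene of the list was called higher and 5 lower. Without wild-type replicate 3 it was 1 higher and 6 lower, without Ahrr-deficient replicate 3 it was 2 higher and 5 lower, and without Ahrr-deficient replicate 1 it was 6 higher and 7 lower.

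Among protein partners and kinases that act on Zfp36 proteins, 1 of 13 tested genes was called higher and 12 were not, with a median log2 fold change of 0.13. That is 7.69% called, below the 19.6% of all tested genes. Ywhaz, of the 14-3-3 proteins that bind phosphorylated Zfp36, rose from 139 ± 9.52 to 190 ± 12.8 CPM (SD, n = 3; log2 fold change 0.38, SE 0.07, edgeR adjusted p = 0.0102). Its call was lost without any of the wild-type libraries (0.33 to 0.41 over the 6 fits). Mapk14 and Mapkapk2, named as the p38 kinase and the kinase that phosphorylates Zfp36, had log2 fold changes of -0.12 and -0.04 and were not called. Without Ahrr-deficient replicate 1, 5 genes of the list were called, in a fit that called 3857 of 11837 genes.

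**Figure D4:**
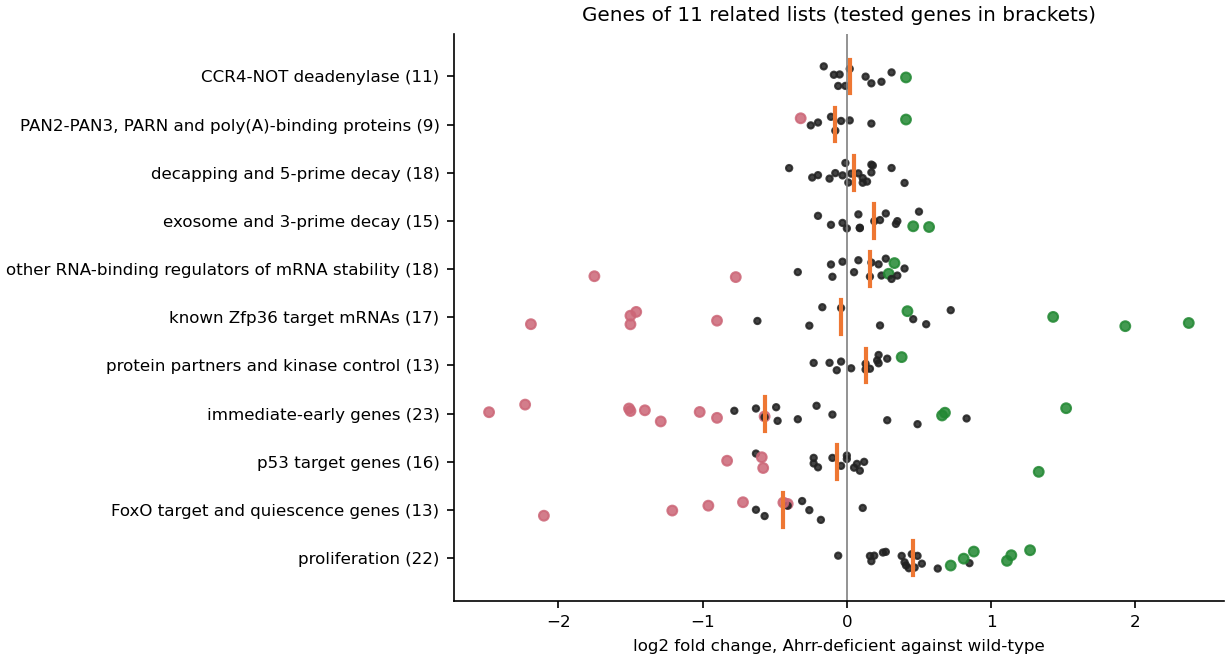
Log2 fold change of Ahrr-deficient against wild-type (horizontal axis) for each tested gene of 11 related lists (vertical axis, tested genes in brackets), with genes called higher in green, called lower in pink, not called in black, and the median as an orange bar. Medians are -0.57 for immediate-early genes, -0.44 for FoxO target and quiescence genes and 0.46 for proliferation genes, and 0.02 for the CCR4-NOT genes.

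Btg2 and Zfp36 belong to the immediate-early class, and other genes of that class were read beside them. Of 23 tested, 9 were called lower, 3 higher and 11 not, with 17 estimates below 0 and a median log2 fold change of -0.57. The called share was 52.2%, against 19.6% called and 9.95% called lower over all tested genes. Since the list was chosen with earlier results known, nothing is read from it. Fos, an AP-1 subunit gene, was read at 326, 326 and 415 CPM in the wild-type libraries, against 84.6, 59.4 and 60.0 CPM in the Ahrr-deficient ones. As for Btg2 and Zfp36, wild-type replicate 3 was the highest and Ahrr-deficient replicate 1 the highest of its genotype, with a log2 fold change of -2.48 (SE 0.16, n = 3 per genotype, edgeR adjusted p = 3.08e-04). Nr4a1, an orphan nuclear receptor gene, fell from 172 ± 17.1 to 65.3 ± 17.3 CPM (SD, n = 3; log2 fold change -1.51, SE 0.20, edgeR adjusted p = 0.00279). Its relative Nr4a2 fell from 11.7 ± 4.17 to 3.56 ± 2.13 CPM (SD, n = 3; log2 fold change -2.23, SE 0.43, edgeR adjusted p = 0.00964), a call lost without wild-type replicate 1 or Ahrr-deficient replicate 2 (-2.57 to -1.65). The other genes called lower were Dusp1, Junb (log2 fold change -1.40), Fosb (-1.29), Atf3 (-1.02), Ier3 (-0.90) and Fosl2 (-0.57), given to complete the count.

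The class did not move as one. The transcription factor genes Egr3, Klf4 and Klf6 rose, with log2 fold changes of 1.52 (SE 0.22, edgeR adjusted p = 0.00384), 0.68 (SE 0.10, edgeR adjusted p = 0.00425) and 0.66 (SE 0.12, edgeR adjusted p = 0.00758). Egr3 was read at 2.73 ± 0.578 and 8.78 ± 1.25 CPM and Klf4 at 140 ± 17.6 and 236 ± 29.9 CPM (SD, n = 3). Fos, Nr4a1, Egr3, Klf4 and Klf6 were called in all 6 fits without 1 library. Dusp1 and Ier3 are on the target list as well, so the lists are not independent.

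Btg2 is also a p53 target, and of 16 tested genes of that list 3 were called lower, 1 higher and 12 not, with a median log2 fold change of -0.07. The share called was 25.0%, near the 19.6% of all tested genes. Cdkn1a, the cell-cycle inhibitor p21, fell from 723 ± 67.2 to 429 ± 11.6 CPM (SD, n = 3; log2 fold change -0.83, SE 0.12, edgeR adjusted p = 0.00374), and AC167363.2 has an exon on the opposite strand. Phlda3, a repressor of Akt signalling, fell from 42.6 ± 2.95 to 30.2 ± 1.88 CPM (SD, n = 3; log2 fold change -0.58, SE 0.10, edgeR adjusted p = 0.00668). Both were called in all 6 fits without 1 library. Sesn1, a stress-response gene, fell (edgeR adjusted p = 0.0279; log2 fold change -0.59, SE 0.15) with overlapping groups, and its call was lost without wild-type replicate 1 or 3 or Ahrr-deficient replicate 2 or 3 (-0.70 to -0.50). The growth-arrest gene Gadd45a rose (edgeR adjusted p = 0.0394; log2 fold change 1.33, SE 0.38). Its 55.7 CPM in Ahrr-deficient replicate 2 compared with 16.0 and 23.0 CPM in replicates 1 and 3, and the log2 fold change was 0.57 at its lowest over the 6 fits. Of those fits it was called only in the one without Ahrr-deficient replicate 1, DESeq2 did not call it, and E230016M11Rik overlaps it on the opposite strand. Only 2 genes of the list were called without wild-type replicate 1 or 3 or without Ahrr-deficient replicate 2 or 3.

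Quiescence genes and targets of FoxO factors, a class in which Btg1 is often placed, had 13 tested genes, with 6 called lower and 7 not, and 12 estimates below 0. Their median log2 fold change was -0.44, and the called genes were 46.2% of the list, against 19.6% called and 9.95% called lower over all tested genes. As for the other lists, nothing is read from this share, since earlier results were known at the choice. Pik3ip1, an inhibitor of PI3 kinase, fell from 43.9 ± 3.94 to 13.2 ± 7.91 CPM (SD, n = 3; log2 fold change -2.10, SE 0.35, edgeR adjusted p = 0.00595), with Gm12592 on the opposite strand. Cited2, a transcriptional coregulator gene, fell from 110 ± 20.3 to 59.9 ± 6.07 CPM (SD, n = 3; log2 fold change -0.96, SE 0.17, edgeR adjusted p = 0.00658). Bcl6, a transcriptional repressor gene, fell from 18.5 ± 5.93 to 8.67 ± 1.5 CPM (SD, n = 3; log2 fold change -1.21, SE 0.28, edgeR adjusted p = 0.0183), a call lost without Ahrr-deficient replicate 2 (-1.44 to -0.88). Thinning also lost the Bcl6 call, and Gm37419 overlaps Bcl6 on the opposite strand. Cdkn1b (log2 fold change -0.72), Txnip (-0.44) and Foxo4 (-0.41) were the other called genes, given to complete the count. The list had 2 called genes without Ahrr-deficient replicate 2, 3 without each wild-type library or Ahrr-deficient replicate 3, and 10 without Ahrr-deficient replicate 1.

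Proliferation genes, which Btg and Tob proteins are known to oppose in function, had 22 tested members, with 6 called higher and 16 not, 1 estimate below 0 and a median log2 fold change of 0.46. The called genes were 27.3% of the list, against 19.6% called and 9.62% called higher over all tested genes. Nothing is read from this share either, since the list was chosen with earlier results known. Top2a, DNA topoisomerase II, rose from 16.6 ± 6.92 to 40.7 ± 13.8 CPM (SD, n = 3; log2 fold change 1.27, SE 0.27, edgeR adjusted p = 0.0149), a call lost without wild-type replicate 1 or 2 or Ahrr-deficient replicate 3 (1.06 to 1.51). Bub1, a mitotic checkpoint kinase gene, rose from 2.17 ± 0.558 to 4.58 ± 0.804 CPM (SD, n = 3; log2 fold change 1.11, SE 0.22, edgeR adjusted p = 0.0113), a call lost without wild-type replicate 1 or Ahrr-deficient replicate 2 (0.96 to 1.24). Ccne1, cyclin E1, rose from 1.84 ± 0.573 to 4.13 ± 1.51 CPM (SD, n = 3; log2 fold change 1.14, SE 0.29, edgeR adjusted p = 0.0252) and kept its call only without Ahrr-deficient replicate 1 among the 6 fits (0.84 to 1.45). Ccnb1 (log2 fold change 0.88), Birc5 (0.81) and Mki67 (0.72) were the other called genes, given to complete the count. Fewer genes were called without each library other than Ahrr-deficient replicate 1: 3 without wild-type replicate 3, and 1 each without wild-type replicate 2, Ahrr-deficient replicate 2 or Ahrr-deficient replicate 3. Without wild-type replicate 1 edgeR called 0, with 7 at an unadjusted p under 0.05, against 2922 of 11427 over all genes. Without Ahrr-deficient replicate 1 there were 11 called, in a fit that called 3857 of 11837 genes.

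Tested genes were last set out by the number of TATTTAT heptamers in their 3' UTR, the motif shown above for the Zfp36 genes, as a description chosen after the data were seen. Of 10529 tested genes with an annotated 3' UTR, 69.5% held none, and of these 8.42% were called higher and 11.2% lower in Ahrr-deficient cells. With 1 heptamer (2082 genes) 13.3% were higher and 7.88% lower. With 2 (709 genes) the shares were 15.4% and 6.06%, and with 3 or more (422 genes) 13.0% and 9.0%, so the classes were not in a steady order. Median log2 fold changes were -0.01, 0.07, 0.09 and 0.09. UTR length and base composition moved with the classes: the median UTR had 877 bases and 46.0% G+C without a heptamer, against 3333 bases and 40.0% G+C with 3 or more. Their part in these shares was not tested.

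**Figure D5:**
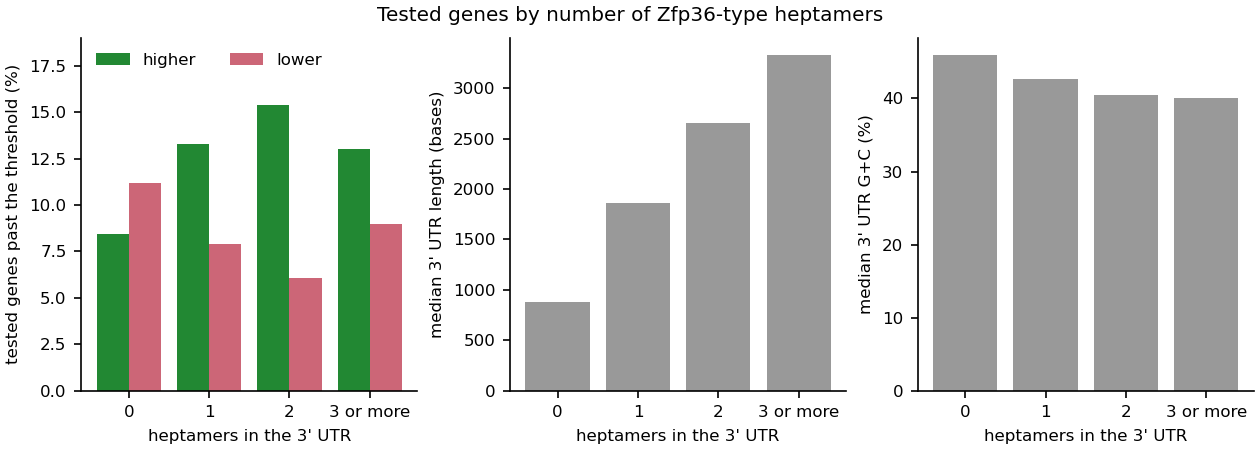
Tested genes by number of heptamers in the 3' UTR (horizontal axes): the percentage called higher or lower in Ahrr-deficient cells (left), the median UTR length in bases (middle) and the median UTR G+C in percent (right). Genes called higher make up 8.42% without a heptamer and 15.4% with 2, while the median UTR lengthens from 877 to 3333 bases across the classes.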

How the data were processed

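Per the labels, polyA RNA (100 ng per sample) was made into libraries with a TruSeq kit and read as single 75 bp reads. The authors deposited raw counts for 53465 features without identifiers, and a normalized signal with identifiers for 16111 genes. 100% of the deposited signal values were whole multiples of 1 read (tolerance 1e-06 reads), and the recovered counts matched the raw features with at least 10 counts in total. Features without an identifier held 0.0232% to 0.0511% of counts and stayed out of the tests. The submitters' processing notes name build mm10, CASAVA 1.8.2, fastp 0.20.0, STAR 2.7.10b, SAMtools 1.16.1, R 4.3.1 and DESeq2 1.40.2, without roles. The counting program, strand setting and annotation are not given in the sources used here.

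Counts were tested here with edgeR 4.0.16 in R 4.3.3 (quasi-likelihood, TMM factors 0.904 to 1.04, filterByExpr, genotype only), two-sided, with Benjamini-Hochberg adjustment over 11408 genes and a threshold of 0.05. The biological coefficient of variation was 13%. The script was checked on simulated counts. Total counts per library set the precision, and floors cover counting error only. Alternatives were RLE and upper-quartile scaling, DESeq2 1.42.0, no filter, a minimum of 50 counts on average, limma-voom (limma 3.58.1), the replicate number as a block, thinning, and each library left out. Gene models are GENCODE M21 and promoters RefSeq. Plots used matplotlib 3.10.9 in Python 3.11.15.

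The members and lists were chosen with earlier results of these data known. Named genes are the 8 members, Ahrr, up to 3 called genes per direction and list that averaged 50 counts or more, and the most alike genes. Others are marked where named. A marker gene and a gene alike to a member are not reported here.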

Additional observations from a re-analysis of the deposited data

How the results depend on the processing

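Of 286 recomputed values, 81 moved beyond a set margin and 205 did not. Counts of called genes have no direction, so they could not be scored as reversed. Over 14 alternatives, all 98 recomputed log2 fold changes of the 7 fitted members were negative. The replicate block called 1390 genes in the whole table, with 3521 of 11408 at an unadjusted p under 0.05. Of the CCR4-NOT list it called 0 (2 unadjusted), and of the PAN2-PAN3 list 0 (2 unadjusted). It called 3 members (Tob1 was lost), 1 exosome, 2 other RNA-binding, and 3 proliferation genes. It called 1 target gene higher and 5 lower. Of the genes named by the rule, Tnf, Ccl2, Cnot9, Paip2, Paip2b, Dis3, Celf1, Pum2, Sesn1 and Ccne1 were not called with the block. The numbers did not pair the libraries: deviations of same-numbered libraries correlated at -0.169, 0.071 and 0.129, and 1 of 6 libraries correlated best with its own number. Thinned to the smallest total, 1286 genes were called, with 2933 of 10363 at an unadjusted p under 0.05. Thinning called 2 members, 0 PAN2-PAN3 (2 unadjusted), 1 exosome, 2 other RNA-binding, 3 FoxO and 2 proliferation genes. Limma-voom called 2 CCR4-NOT, 1 decapping and 2 partner genes. DESeq2 called 1 PAN2-PAN3, 1 exosome and 2 partner genes. Upper-quartile scaling gave 1 PAN2-PAN3 and 1 decapping gene, no filter 1 PAN2-PAN3 and 1 exosome gene, and a mean of at least 50 counts 2 other RNA-binding genes. Leaving out 1 library gave 694 (without wild-type replicate 1) to 3857 genes (without Ahrr-deficient replicate 1), 2 to 4 members, 0 to 3 CCR4-NOT, 0 to 4 PAN2-PAN3, 0 to 4 decapping, 1 to 4 exosome, 1 to 8 other RNA-binding, 6 to 13 target, 0 to 5 partner, 10 to 16 immediate-early, 2 to 5 p53, 2 to 10 FoxO and 0 to 11 proliferation genes. Depth limits Btg3 most. The mean share of Zfp36 in its family (59.1% and 37.0% in wild-type and Ahrr-deficient cells) moved to 64.2% and 42.2% per kb of spliced transcript and to 67.2% and 45.4% with the RefSeq gene span.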
